A study of Mus musculus with 30 samples.

Results

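The comparison described here set βTC3 cells with a doxycycline-inducible ALK7 construct against βTC3 cells with an inducible dominant-negative form of ALK7 (ALK7-DN), both under doxycycline (DOX) and without added activin B. βTC3 is an insulin-producing cell line from a mouse pancreatic islet tumour. The 6 libraries were chosen by their labels alone: 3 from the ALK7 line and 3 from the ALK7-DN line, out of 30 libraries of poly(A) RNA in the series. The ALK7 and ALK7-DN inserts sat on the same PB-33 plasmid backbone as that of the control line, which carried no receptor insert according to its label, and all 3 lines received 1 µg/ml DOX for 24 hours. All 9 of these libraries were of batch 1 by their labels. Further values are given from cells that also received 50 ng/ml activin B for 24 hours, which were of batch 1 in the ALK7 and control lines and of batch 2 in the ALK7-DN line. Cells were plated in triplicate wells per the labels, so the p-values rest on well-to-well spread, possibly technical. With 1 line per construct, an effect of the construct and a difference between the lines cannot be told apart.

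ALK7, the product of Acvr1c, is a type I receptor of the TGF-β family. Activins and related ligands bind a type II receptor, which phosphorylates the type I receptor, and this in turn phosphorylates SMAD2 and SMAD3. These join SMAD4 and enter the nucleus to regulate transcription. BMP ligands use other type I receptors and SMAD1, SMAD5 and SMAD9, whose best known targets are the ID genes. A dominant-negative type I receptor occupies the receptor complex without passing the signal on. In beta cells ALK7 is known as a receptor that restrains insulin secretion.

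Library totals of the 6 libraries ran from 25523925 to 32824118 counts. The beta cell transcripts Ins1, Ins2 and Iapp were among the high ones in all 6 libraries, and the summed beta cell markers reached 18857 to 20484 CPM (read counts scaled to a common library size) in ALK7 libraries and 20736 to 22236 CPM in ALK7-DN libraries. Summed alpha cell markers, mostly the glucagon gene Gcg, reached 63.5 to 65.5 CPM in ALK7 libraries and 53.1 to 62.8 CPM in ALK7-DN libraries. Delta cell markers, mostly Sst, summed to 0.671 to 1.12 CPM in ALK7 libraries and 0.848 to 0.944 CPM in ALK7-DN libraries. Over all 6 libraries Cela1 had 82 reads and Ctrb1 11 among acinar markers, and Pecam1 38 and Kdr 12 among endothelial ones, while Cpa1, Prss2, Hhex and Cdh5 had 0. Among immune markers Cd68 had 408 reads and Lyz2 15, and among fibroblast markers Col1a1 had 234 and Pdgfra 7. Replicates differed by more than counting error, with a lowest chi-square per degree of freedom of 7.78. On a principal component analysis of the 9 libraries with DOX alone, the first component held 21.4% of the variance. It placed the ALK7 libraries between 12.9 and 23.0, the ALK7-DN libraries between -30.8 and -1.36, and the control libraries between -20.7 and 6.77. On this component the ALK7-DN and control libraries overlapped each other and the ALK7 libraries stood apart. The third component held 13.7% of the variance and set the control libraries apart, between 12.2 and 22.3. There the ALK7 libraries (-10.8 to -0.356) and the ALK7-DN libraries (-18.2 to -9.12) overlapped each other.

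The targeted gene came first. Acvr1c (mm10 chromosome 2, 58267453 to 58357895, minus strand) had 163, 142 and 158 CPM in ALK7 cells, 156, 158 and 170 CPM in ALK7-DN cells and 167, 158 and 170 CPM in control cells. The ALK7 libraries were not higher than those of the other lines, and the counts per gene do not separate a transgene from the cells' own gene. The log2 fold change of ALK7 over ALK7-DN was -0.07 (SE 0.10, adjusted p = 0.81). The cells are therefore called the ALK7-labelled and the ALK7-DN-labelled cells in what follows.

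Across all genes, differences were many but small. Of 15627 genes tested, 383 (2.45%) passed edgeR's quasi-likelihood test at a Benjamini-Hochberg adjusted p under 0.05, the source of every adjusted p below unless another tool is named. Transcripts of 200 genes (1.28%) were higher and those of 183 genes (1.17%) were lower in ALK7-labelled than in ALK7-DN-labelled cells. The median absolute log2 fold change of the called genes was 0.49. Among them 72 were higher and 77 lower by at least 1.5-fold, and 23 were higher and 36 lower by at least 2-fold. The median log2 fold change of all genes tested was 0.0024. In 379 of the 383 the ALK7-labelled and ALK7-DN-labelled libraries did not overlap, which held for 28.6% of all genes tested. The count fell to 232, 221 and 214 genes when ALK7 replicate 1, 2 or 3 was left out, and to 206, 225 and 262 without ALK7-DN replicate 1, 2 or 3.

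**Figure D1:**
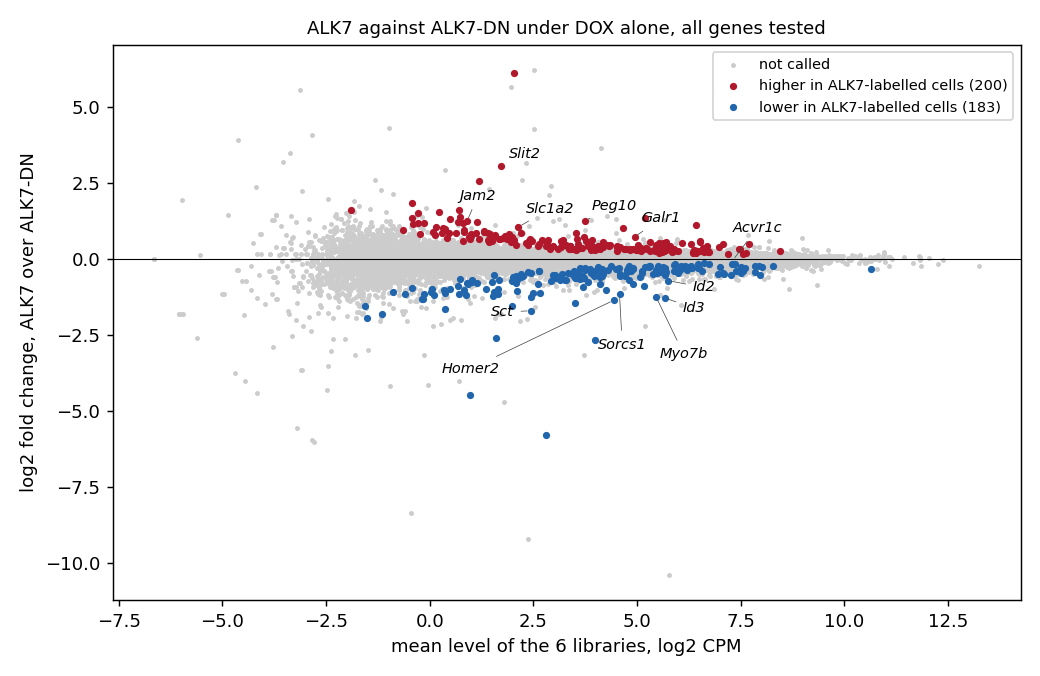
Log2 fold change of ALK7 over ALK7-DN (vertical axis) against the mean level of the 6 libraries in log2 CPM (horizontal axis) for the 15627 genes tested under DOX alone. The 200 genes called higher are red, the 183 called lower are blue, and Acvr1c lies among the grey genes that were not called.

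Fold changes moved with the GC content of transcripts. Across 15453 genes the Spearman correlation of the log2 fold change with GC content was -0.42, given as a description, since genes are not independent replicates. The median log2 fold change was 0.10 for genes with 35% to 37.5% GC and -0.35 for those with 62.5% to 65% GC. Libraries of 1 group also differed in this trend, as the correlation of a library's deviation from its group mean with GC content ran from -0.38 to 0.44. A fit with gene offsets for GC content called 683 genes, and 352 of the 383 were called there in the same direction. These were 91.9% of the calls without the correction and 51.5% of those with it.

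**Figure D2:**
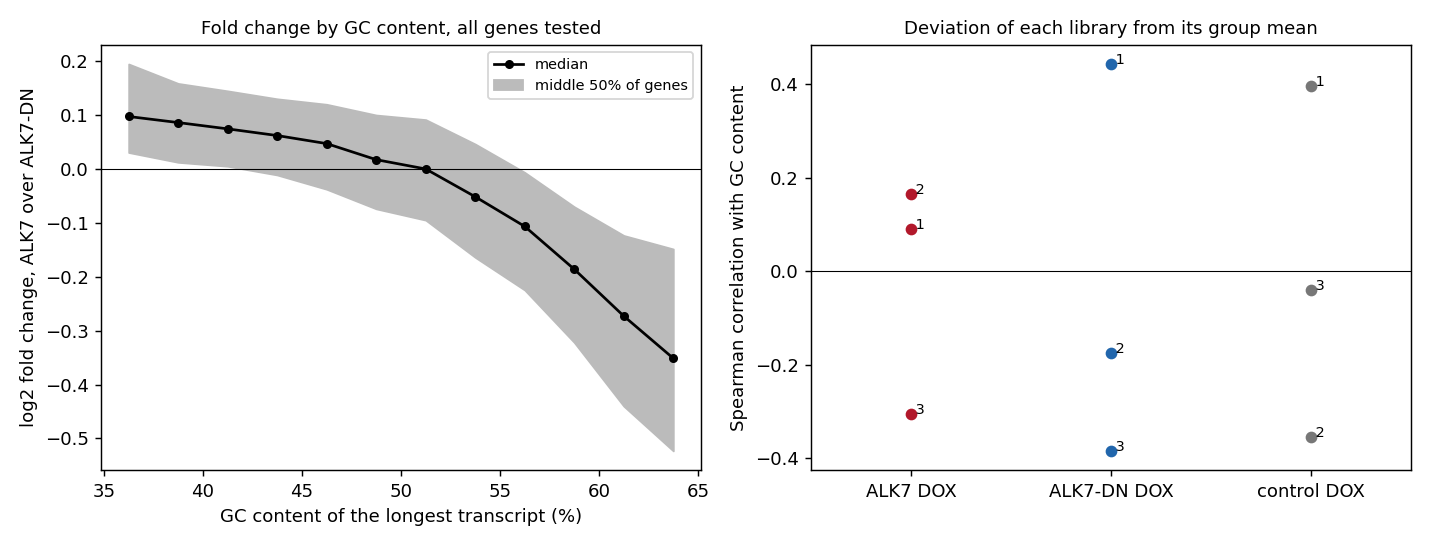
Left, median and middle 50% of the log2 fold change of ALK7 over ALK7-DN (vertical axis) in steps of transcript GC content in percent (horizontal axis); the median runs from 0.10 at the low end to -0.35 at the high end. Right, Spearman correlation of each library's deviation from its group mean with GC content, numbered by replicate, for ALK7, ALK7-DN and control libraries under DOX alone.

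The clearest single differences included the secreted guidance ligand Slit2, higher in ALK7-labelled cells, and the ID genes Id2 and Id3, lower. Their promoters are shown because SMAD-binding letters can be read in them. The window runs from 250 bases before to 50 bases after the start site in RefSeq on GRCm38.p6, 5′ to 3′ on the gene's strand. Capitals mark CAGAC, the core of SMAD3 and SMAD4 binding elements, and GGCGCC, a GC-rich element linked to SMAD1 and SMAD5. Both strands were searched, so that CAGAC on the other strand reads GTCTG, and neither motif overlaps the other.
Slit2, chr5:47982905-47983204, plus strand: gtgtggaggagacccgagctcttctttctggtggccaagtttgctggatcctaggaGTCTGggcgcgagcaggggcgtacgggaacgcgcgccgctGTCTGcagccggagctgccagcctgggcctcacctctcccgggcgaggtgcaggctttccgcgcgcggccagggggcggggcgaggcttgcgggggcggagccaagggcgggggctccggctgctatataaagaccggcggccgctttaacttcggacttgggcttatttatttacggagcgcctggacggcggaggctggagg
Id2, chr12:25096043-25096342, minus strand: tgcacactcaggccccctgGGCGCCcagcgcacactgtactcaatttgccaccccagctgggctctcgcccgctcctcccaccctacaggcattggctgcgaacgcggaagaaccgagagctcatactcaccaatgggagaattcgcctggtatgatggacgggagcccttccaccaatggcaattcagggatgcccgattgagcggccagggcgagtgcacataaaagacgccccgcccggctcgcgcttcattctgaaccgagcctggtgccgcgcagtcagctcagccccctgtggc
Id3, chr4:136143572-136143871, plus strand: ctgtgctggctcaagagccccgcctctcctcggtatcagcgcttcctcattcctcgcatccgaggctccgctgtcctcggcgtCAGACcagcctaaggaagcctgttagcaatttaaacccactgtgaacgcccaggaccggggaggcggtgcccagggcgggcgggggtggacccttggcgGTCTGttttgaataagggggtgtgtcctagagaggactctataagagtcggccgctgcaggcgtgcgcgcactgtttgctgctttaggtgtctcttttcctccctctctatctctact
The Slit2 window holds 2 CAGAC matches, the Id3 window 2 and the Id2 window 1 GGCGCC match. Of 32851 promoter windows of this length, 49.6% hold CAGAC and 11.9% hold GGCGCC, so that a match describes these letters and does not show a site in use.

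Slit2 (mm10 chromosome 5, 47983138 to 48307733, plus strand) encodes a secreted ligand of Robo receptors in axon guidance. It stood at 5.84, 6.02 and 5.86 CPM in ALK7-labelled cells, 0.742, 0.664 and 0.700 CPM in ALK7-DN-labelled cells and 0.818, 0.662 and 0.845 CPM in control cells. The ALK7-labelled libraries were far above the other 6, which overlapped each other. The log2 fold change of ALK7 over ALK7-DN was 3.06 (SE 0.22, adjusted p = 3.2e-09). Against control cells ALK7-labelled cells were higher by 2.93 (adjusted p = 1.5e-08), and ALK7-DN-labelled cells differed by -0.13 (adjusted p = 0.97). Activin B did not pass the test for Slit2 in control cells (log2 fold change 0.39, adjusted p = 0.29). With activin B added, Slit2 stood at 3.50, 3.79 and 3.88 CPM in the ALK7 line and 0.902, 0.561 and 0.731 CPM in the ALK7-DN line.

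Other genes with large fold changes that were higher in ALK7-labelled cells encode transporters, receptors, metabolic enzymes and surface proteins. Slc1a2, the glial-type glutamate transporter, had 6.12, 5.53 and 6.09 CPM in ALK7-labelled cells, 2.94, 2.77 and 2.90 CPM in ALK7-DN-labelled cells and 5.87, 5.82 and 5.92 CPM in control cells. The ALK7-labelled and control libraries overlapped, and the ALK7-DN-labelled ones stood below both. Its log2 fold change of ALK7 over ALK7-DN was 1.04 (SE 0.12, adjusted p = 1.4e-05). Sparcl1, a secreted matrix-associated protein, had 2.37, 2.45 and 2.24 CPM in ALK7-labelled cells against 0.680, 1.11 and 0.980 CPM in ALK7-DN-labelled cells (log2 fold change 1.36, SE 0.16, adjusted p = 1.5e-05). Prlr, the prolactin receptor through which beta cells grow in pregnancy, had 37.6, 28.2 and 34.8 CPM against 16.9, 16.2 and 17.3 CPM in the same order of lines (log2 fold change 1.00, SE 0.15, adjusted p = 0.00021). For both genes the lowest ALK7-labelled library was above the highest ALK7-DN-labelled one. Bcat1, a cytosolic aminotransferase for branched-chain amino acids, differed by 1.20 (SE 0.17, adjusted p = 1.0e-04), against -0.02 for ALK7 over control (adjusted p = 0.98).

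Levels were uneven or less secure for several of the higher genes with the largest fold changes, taken among called genes with a regular symbol, a mean of at least 2 CPM in the higher group and no overlap between the libraries. Ldha, the lactate dehydrogenase subunit that beta cells normally hold low, had 64.2, 59.9 and 32.5 CPM in ALK7-labelled cells against 22.1, 19.5 and 20.5 CPM in ALK7-DN-labelled cells (log2 fold change 1.33, SE 0.22, adjusted p = 0.00061). ALK7 replicate 3 was near the 33.7, 29.4 and 26.1 CPM of control cells. Ak4, a mitochondrial adenylate kinase, showed the same unevenness, with 4.26, 5.74 and 1.61 CPM in ALK7-labelled cells and 0.989, 0.516 and 0.420 CPM in ALK7-DN-labelled cells (log2 fold change 2.57, SE 0.46, adjusted p = 0.0017). Ahcy, which breaks down adenosylhomocysteine, spread from 67.8 to 143 CPM among the 3 control libraries. The processed copy Ldha-ps2, named after its values were seen, was also higher by 1.17 (adjusted p = 0.04), and reads can be shared between the copies, so the level of Ldha is uncertain. The call of Ahcy was lost without ALK7 replicate 3 (adjusted p = 0.078) or ALK7-DN replicate 3 (adjusted p = 0.057). The call of Slc38a1, a glutamine transporter, was lost without ALK7 replicate 3 (adjusted p = 0.063) or without ALK7-DN replicate 1, 2 or 3 (adjusted p of 0.057 to 0.058). Gstm6, a glutathione transferase, lost its call without ALK7 replicate 3 or ALK7-DN replicate 1 (adjusted p of 0.061 to 0.069), and Aard without ALK7 replicate 2 or ALK7-DN replicate 1 or 3 (adjusted p of 0.061 to 0.079).

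**Figure D3:**
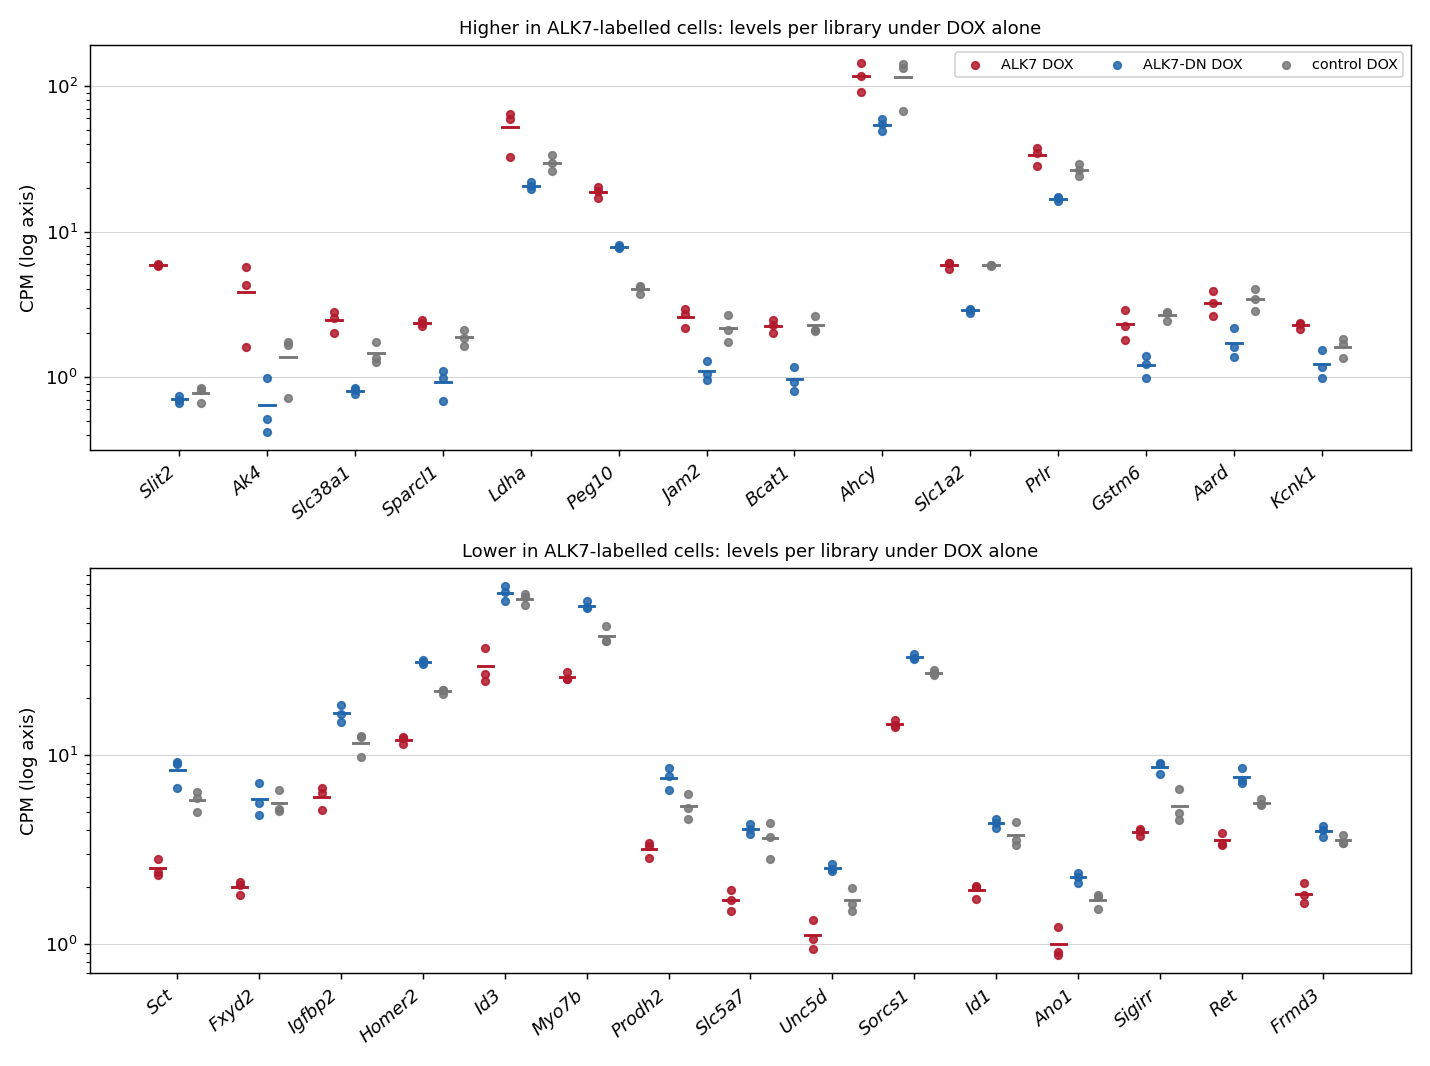
Levels in CPM on a log axis of named higher (top) and lower (bottom) genes with the largest fold changes of ALK7 over ALK7-DN, 1 point per library with a bar at the mean of 3, in ALK7, ALK7-DN and control cells under DOX alone. Slit2 and Peg10 are set apart in ALK7-labelled cells, and Ldha and Ak4 are uneven between the ALK7-labelled libraries.

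Genes lower in ALK7-labelled cells were led, by p, by Homer2 and Sorcs1. Homer2 (mm10 chromosome 7, 81600481 to 81707527, minus strand), a scaffold protein that links glutamate receptors to calcium stores in neurons, had 12.2, 11.4 and 12.4 CPM in ALK7-labelled cells, 30.3, 32.0 and 31.0 CPM in ALK7-DN-labelled cells and 21.2, 22.1 and 22.0 CPM in control cells. The 3 lines did not overlap, and the control lay between the other two. The log2 fold change was -1.37 (SE 0.08, adjusted p = 2.3e-10), with -0.85 for ALK7 over control (adjusted p = 5.0e-07) and 0.52 for ALK7-DN over control (adjusted p = 0.00073). Sorcs1 (mm10 chromosome 19, 50143299 to 50678646, minus strand), a sorting receptor linked to insulin granule supply in mice, had 14.1, 15.4 and 14.4 CPM in ALK7-labelled cells, 34.5, 32.2 and 32.5 CPM in ALK7-DN-labelled cells and 27.3, 28.3 and 26.4 CPM in control cells. Again no 2 lines overlapped. Its log2 fold change was -1.18 (SE 0.07, adjusted p = 2.3e-10), and activin B gave a log2 fold change of -1.08 for Sorcs1 in control cells (adjusted p = 2.5e-11).

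Igfbp2, a binding protein of insulin-like growth factors, had 6.27, 6.68 and 5.11 CPM in ALK7-labelled cells against 18.3, 16.5 and 15.04 CPM in ALK7-DN-labelled cells (log2 fold change -1.46, SE 0.19, adjusted p = 4.4e-05). Fxyd2, a regulatory subunit of the sodium pump, had 2.05, 2.13 and 1.81 CPM against 7.11, 5.61 and 4.83 CPM in the same order of lines (log2 fold change -1.55, SE 0.19, adjusted p = 2.4e-05). Ret, the receptor tyrosine kinase for GDNF-family ligands, had 3.39, 3.36 and 3.85 CPM against 8.56, 7.38 and 7.10 CPM (log2 fold change -1.12, SE 0.13, adjusted p = 7.6e-06). In all 3 genes every ALK7-labelled library was below every ALK7-DN-labelled and control library. Myo7b, a myosin of microvilli, had 27.4, 25.3 and 25.1 CPM in ALK7-labelled cells, 65.5, 60.4 and 59.6 CPM in ALK7-DN-labelled cells and 48.2, 39.9 and 40.3 CPM in control cells (log2 fold change -1.25, SE 0.12, adjusted p = 4.3e-07). Frmd3, Sigirr, Slc5a7, Prodh2 and Unc5d had log2 fold changes of -1.10 to -1.25. Among the 15 lower genes chosen in the same way, Ano1, a calcium-activated chloride channel, lost its call without any 1 of the 6 libraries (adjusted p of 0.056 to 0.16).

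Several ID genes, known as BMP targets, were lower in ALK7-labelled cells. Of 10 tested genes listed as BMP and SMAD1/5 targets 4 were called, all lower (40%, against 1.17% of all genes), and the log2 fold changes of the list ran from -1.29 to 0.47 around a median of -0.38. Id3 had 24.7, 37.0 and 26.7 CPM in ALK7-labelled cells, 72.9, 78.2 and 65.6 CPM in ALK7-DN-labelled cells and 70.8, 62.3 and 68.8 CPM in control cells (log2 fold change -1.29, SE 0.20, adjusted p = 0.00035). Id2 had 39.2, 42.2 and 39.3 CPM in ALK7-labelled cells, 66.2, 64.3 and 68.5 CPM in ALK7-DN-labelled cells and 66.1, 66.3 and 65.3 CPM in control cells (log2 fold change -0.72, SE 0.06, adjusted p = 2.9e-08). Id1 had 1.74, 2.03 and 2.00 CPM against 4.36, 4.57 and 4.13 CPM in ALK7-DN-labelled cells (log2 fold change -1.17, SE 0.23, adjusted p = 0.0046). For these ID genes, whose products block basic helix-loop-helix factors, the ALK7-labelled libraries were below all others, and ALK7-DN-labelled cells did not differ from control cells past the test (log2 fold changes of 0.20, 0.01 and 0.10 for Id1, Id2 and Id3). Id4 was not called (log2 fold change -0.15, adjusted p = 0.53). Atoh8 was the fourth call (log2 fold change -0.81, SE 0.21, adjusted p = 0.034), and it was lost without any 1 of the 6 libraries (adjusted p of 0.057 to 0.22), which left 3 calls each time.

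The ID genes parted from each other in the activin B response of control cells, which shares no library with the comparison of the 2 receptor lines. Activin B lowered Id3 (log2 fold change -1.74, adjusted p = 4.7e-07) and Id1 (-0.76, adjusted p = 0.021) and raised Id2 (0.19, adjusted p = 0.017). With activin B, Id2 stood at 62.8, 60.2 and 56.1 CPM in the ALK7 line, 73.2, 71.0 and 66.1 CPM in the ALK7-DN line and 75.5, 74.4 and 76.1 CPM in the control line. Id3 stood at 15.6, 15.9 and 13.03 CPM in the ALK7 line, 22.0, 26.5 and 19.2 CPM in the ALK7-DN line and 22.7, 16.03 and 21.5 CPM in the control line. The ALK7 line was thus the lowest of the 3 in both genes, where batch and line coincide for ALK7-DN.

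**Figure D4:**
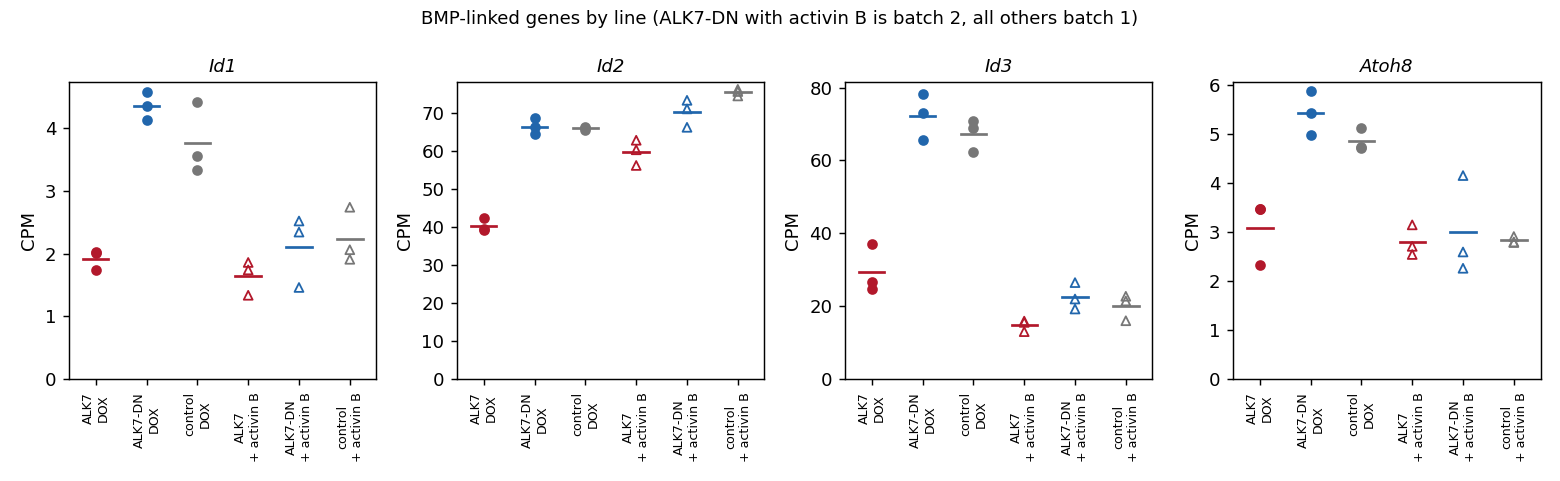
Levels in CPM, from 0, of Id1, Id2, Id3 and Atoh8 in each library of the ALK7, ALK7-DN and control lines, under DOX alone (filled circles) and with activin B (open triangles), with a bar at each mean of 3. Under DOX alone the ALK7-labelled libraries lie below both other lines in all 4 genes; Id2 of that line reaches 56.1 to 62.8 CPM with activin B, while Id3 is lower with activin B in all 3 lines.

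Of 11 tested activin and TGF-β receptor genes 0 were called by edgeR, 1 had an unadjusted p under 0.05, and DESeq2 and limma-trend called 0; with GC correction 1 was called, lower. Levels were 45.5, 42.6 and 46.5 CPM for the type II receptor Acvr2a in ALK7-labelled cells against 39.1, 43.1 and 44.4 CPM in ALK7-DN-labelled cells. The signal carriers Smad2 (log2 fold change 0.01, adjusted p = 0.94) and Smad4 (-0.06, adjusted p = 0.55) were not called. Of 16 SMAD genes and their regulators Skil was higher and Smad3 lower (12.5%, against 2.45% of all genes), and 6 had an unadjusted p under 0.05. With GC correction 1 of the 16 was called higher and 4 lower. Smad3 had 11.6, 12.6 and 11.8 CPM in ALK7-labelled cells against 16.3, 14.3 and 14.3 CPM in ALK7-DN-labelled cells (log2 fold change -0.32, SE 0.09, adjusted p = 0.045), and lost its call without any 1 of the 6 libraries (adjusted p of 0.067 to 0.30).

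Of 24 tested SMAD2/3 target and feedback genes 3 were called, all higher (12.5%, against 1.28% of all genes called higher). An unadjusted p under 0.05 was found for 11 of the 24, and log2 fold changes ran from -0.80 to 1.23 around a median of -0.01. In control cells 20 of the 24 were called higher with activin B. The list was chosen with earlier results of these data known, so these shares are descriptions and not independent support. Jam2, a junctional adhesion molecule, had 2.92, 2.73 and 2.16 CPM in ALK7-labelled cells, 1.298, 0.959 and 1.05 CPM in ALK7-DN-labelled cells and 1.73, 2.65 and 2.11 CPM in control cells (log2 fold change of ALK7 over ALK7-DN 1.23, SE 0.15, adjusted p = 2.4e-05). The ALK7-DN-labelled libraries were below all others. With activin B, Jam2 reached 76.0, 79.7 and 81.4 CPM in the ALK7 line, 25.8, 27.0 and 28.5 CPM in the ALK7-DN line and 47.6, 53.8 and 45.0 CPM in the control line. Fam210b, which activin B raised by 3.56 in control cells, had 54.3, 55.1 and 54.5 CPM in ALK7-labelled cells against 45.9, 45.2 and 45.0 CPM in ALK7-DN-labelled cells (log2 fold change 0.27, SE 0.05, adjusted p = 0.001). The SMAD inhibitor Skil had 36.2, 34.7 and 36.2 CPM against 28.1, 29.9 and 29.0 CPM (log2 fold change 0.30, SE 0.08, adjusted p = 0.03) and lost its call without any 1 of the 6 libraries (adjusted p of 0.064 to 0.15). Smad7, the inhibitory SMAD and a standard early target, had 2.01, 2.27 and 2.40 CPM in ALK7-labelled cells against 2.26, 2.29 and 2.62 CPM in ALK7-DN-labelled cells and was not called (adjusted p = 0.80). Its log2 fold change was -0.10, and 0.02 with GC correction.

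The wider set of genes was set beside the activin B response of control cells, which comes from libraries other than the 6. Activin B changed 3180 genes (20.3%) there, 1671 higher (10.7%) and 1509 lower (9.66%). Of the 200 genes higher in ALK7-labelled cells, 94 (47.0%) were called higher with activin B and 30 (15%) lower. Of the 183 genes lower in ALK7-labelled cells, 27 (14.8%) were called higher and 89 (48.6%) lower. The 94 made up 5.63% of the genes higher with activin B and the 89 made up 5.90% of those lower. The median activin B response was 0.20 for the higher genes, -0.31 for the lower genes and -0.0022 for all genes. Both comparisons also moved with GC content, with a correlation of -0.23 for activin B in control cells, and with GC correction of both fits the shares were 48.5% and 17.1% of 299 higher genes, 13.3% and 48.2% of 384 lower genes, and 12.9% and 14% of all genes.

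**Figure D5:**
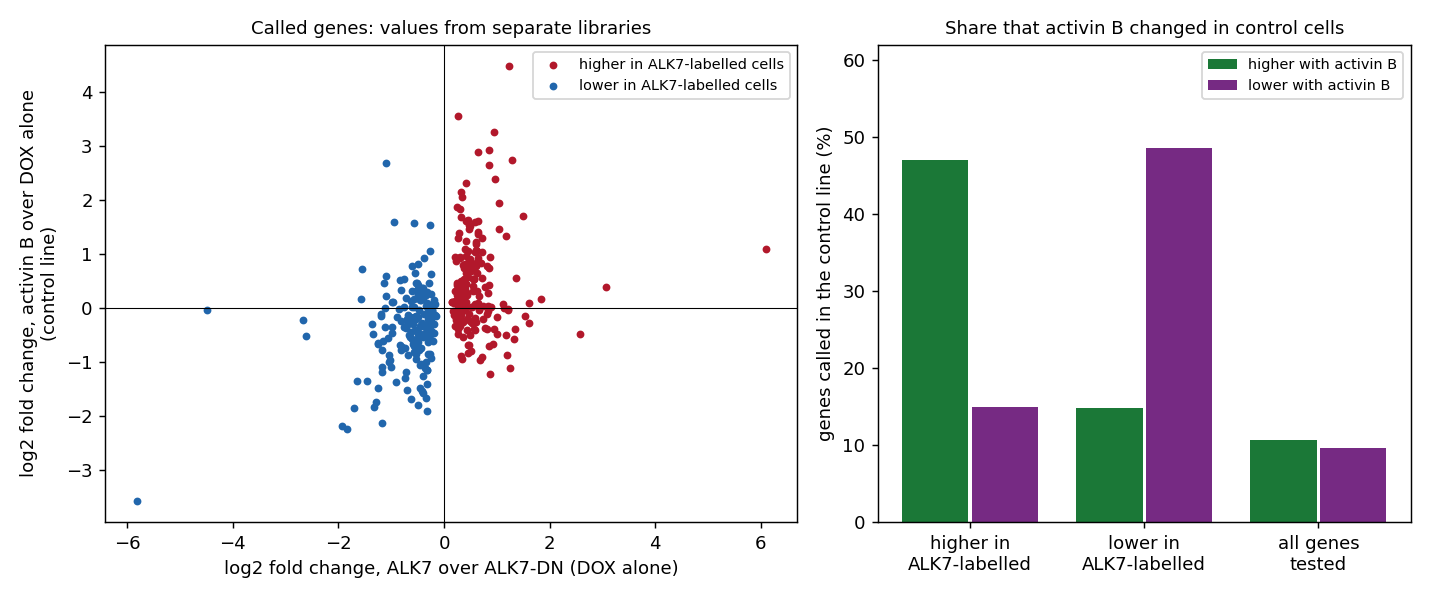
Left, log2 fold change of activin B over DOX alone in the control line (vertical axis) against that of ALK7 over ALK7-DN under DOX alone (horizontal axis) for the 383 called genes. Right, percent of the genes higher, of those lower and of all genes that were called higher or lower with activin B in the control line: 47.0% and 15%, 14.8% and 48.6%, 10.7% and 9.66%.

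Some genes ran with the activin B response and others against it. Galr1, the galanin receptor that mediates inhibition of insulin release in mice, had 35.3, 39.8 and 39.2 CPM in ALK7-labelled cells, 22.3, 24.6 and 22.6 CPM in ALK7-DN-labelled cells and 32.9, 34.1 and 30.3 CPM in control cells (log2 fold change 0.72, SE 0.07, adjusted p = 4.3e-07), and activin B raised it by 1.04 in control cells. Pax4, a beta cell lineage factor, had 14.2, 14.5 and 14.2 CPM in ALK7-labelled cells against 8.19, 9.77 and 9.48 CPM in ALK7-DN-labelled cells (log2 fold change 0.64, SE 0.08, adjusted p = 2.6e-05), and activin B raised it by 2.89. Abca1, the cholesterol exporter, was higher by 0.48 (SE 0.07, adjusted p = 0.00021), with an activin B response of 1.54. Nsg2, a neuronal endosome protein, had 8.05, 9.31 and 9.43 CPM in ALK7-labelled cells, 18.0, 17.7 and 15.7 CPM in ALK7-DN-labelled cells and 9.57, 9.72 and 10.1 CPM in control cells (log2 fold change -0.94, SE 0.08, adjusted p = 1.7e-07), while activin B raised it by 1.59. Peg10 was higher in ALK7-labelled cells and fell with activin B in control cells by 1.11 on the log2 scale. Fam174b, a membrane protein gene, was higher by 0.54 (SE 0.05, adjusted p = 4.3e-07) with no called response to activin B (0.01, adjusted p = 0.89).

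When activin B was present, the direction of most called genes was kept in value. In the libraries with activin B, the mean log2 CPM of the ALK7 line was set beside that of the ALK7-DN line. It was above for 184 of the 200 higher genes and below for 167 of the 183 lower genes. Among the genes not called it was above for 52.2%. No test was made there, because the ALK7-DN libraries with activin B were of batch 2 and the ALK7 ones of batch 1. Galr1 stood at 75.8, 80.8 and 79.4 CPM in the ALK7 line with activin B against 45.0, 44.5 and 43.1 CPM in the ALK7-DN line. Homer2 stood at 10.1, 9.02 and 10.3 CPM against 26.6, 26.4 and 24.5 CPM, and Sorcs1 at 6.08, 4.94 and 4.72 CPM against 21.5, 19.6 and 20.4 CPM, in the same order of lines. Peg10 came closer together, at 7.23, 6.10 and 5.26 CPM in the ALK7 line and 5.53, 5.29 and 5.72 CPM in the ALK7-DN line, where the libraries overlapped.

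The control line under DOX alone was set beside both receptor lines. ALK7-labelled cells differed from control cells in 310 genes (1.98%), 161 higher (1.03%) and 149 lower (0.953%), and ALK7-DN-labelled cells in 151 genes (0.966%), 59 higher (0.378%) and 92 lower (0.589%). These 2 comparisons share the control libraries. Of the 200 genes higher in ALK7-labelled than in ALK7-DN-labelled cells, 52 were higher in ALK7-labelled cells than in control cells alone, 48 were lower in ALK7-DN-labelled cells alone, 4 were higher in both lines, and 96 were called in neither. Of the 183 lower genes, 64 were lower in ALK7-labelled cells alone, 15 were higher in ALK7-DN-labelled cells alone, 2 were called both ways, 1 was lower in both lines, and 101 were called in neither. Leaving out 1 of its 6 libraries gave 226 genes for ALK7 against control without control replicate 2 and 151 to 162 without each of the other 5, and 67 to 88 for ALK7-DN against control. Fam174b is an example of the second kind among higher genes, with 62.3, 59.4 and 61.99 CPM in ALK7-labelled cells, 41.7, 42.9 and 41.9 CPM in ALK7-DN-labelled cells and 57.9, 60.8 and 61.9 CPM in control cells.

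The list of islet and gut hormones held 4 called genes of 19 tested (21.1%), all lower in ALK7-labelled cells (against 1.17% of all genes). The list's median log2 fold change was -0.25. Sct, which encodes secretin, had 2.33, 2.83 and 2.40 CPM in ALK7-labelled cells, 9.18, 8.96 and 6.72 CPM in ALK7-DN-labelled cells and 6.35, 4.98 and 5.92 CPM in control cells (log2 fold change -1.71, SE 0.27, adjusted p = 0.00041). Cck, cholecystokinin, had 11.8, 14.7 and 10.97 CPM against 26.1, 27.4 and 23.3 CPM in ALK7-DN-labelled cells (log2 fold change -1.04, SE 0.20, adjusted p = 0.0038). The incretin gene Gip had 25.8, 24.7 and 24.9 CPM in ALK7-labelled cells, 42.9, 45.4 and 52.6 CPM in ALK7-DN-labelled cells and 30.3, 30.8 and 26.9 CPM in control cells (log2 fold change -0.90, SE 0.09, adjusted p = 1.5e-06). For Gip the ALK7-DN-labelled libraries stood above both other lines, with 0.68 over control (adjusted p = 0.00018). The fourth call of the list, Rbp4 (log2 fold change -0.32, SE 0.08, adjusted p = 0.045), encodes retinol-binding protein, a carrier and not a hormone. Rbp4 lost its call without any 1 of the 6 libraries (adjusted p of 0.065 to 0.22). Activin B lowered 13 of the 19 in control cells, Sct, Cck and Gip among them. In bulk RNA, fewer cells of a type and less RNA per cell cannot be told apart.

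The insulin genes were not called. Ins2 had 8358, 9639 and 8769 CPM in ALK7-labelled cells against 11076, 10681 and 9949 CPM in ALK7-DN-labelled cells (log2 fold change -0.24, SE 0.16, adjusted p = 0.53), and Ins1 had 3507, 3402 and 3268 CPM against 4400, 3936 and 3731 CPM (log2 fold change -0.25, SE 0.11, adjusted p = 0.32). For both genes every ALK7-labelled library was below every ALK7-DN-labelled one, where 28.6% of all genes tested did not overlap. Mafa, a beta cell factor that acts on the insulin promoter, had 8.88, 12.5 and 8.26 CPM in ALK7-labelled cells and 27.9, 23.2 and 12.9 CPM in ALK7-DN-labelled cells, with a wide spread, and was not called (log2 fold change -1.11, SE 0.51, adjusted p = 0.35). Among beta cell transcription factors, Hnf4a was lower. It had 81.7, 75.9 and 79.0 CPM against 103, 95.6 and 95.9 CPM (log2 fold change -0.31, SE 0.07, adjusted p = 0.017), a call lost without ALK7 replicate 2, ALK7 replicate 3 or ALK7-DN replicate 1 (adjusted p up to 0.11). The duct marker Cftr, a chloride channel, was lower at 1.38, 1.15 and 0.904 CPM in ALK7-labelled cells against 2.47, 2.29 and 2.31 CPM in ALK7-DN-labelled cells (log2 fold change -1.04, SE 0.18, adjusted p = 0.00085). The duct marker list of Krt19, Sox9 and Cftr summed to 0.904 to 1.42 CPM in ALK7-labelled cells and 2.29 to 2.81 CPM in ALK7-DN-labelled cells, nearly all of it Cftr.

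Imprinted genes, of which only the copy from one parent is active, changed in both directions. Of 21 tested, 3 were higher and 3 lower (28.6% in all, against 2.45% of all genes), and the list's median was -0.04. The share counts genes and not separate regions, as Dlk1 and Meg3 are of 1 domain and Peg10 has called neighbours. Peg10 (mm10 chromosome 6, 4747306 to 4760517, plus strand), a retrotransposon-derived gene, had 20.1, 17.04 and 19.03 CPM in ALK7-labelled cells, 8.13, 7.89 and 7.66 CPM in ALK7-DN-labelled cells and 4.23, 4.15 and 3.72 CPM in control cells. The 3 lines did not overlap, and both receptor lines were above control, by 2.21 (adjusted p = 2.8e-10) for ALK7 and 0.97 (adjusted p = 0.00019) for ALK7-DN. The log2 fold change between them was 1.25 (SE 0.13, adjusted p = 1.1e-06). Its neighbours, named after their values were seen, did not all follow. Sgce (4674350 to 4747207, minus strand) was higher by 1.14 at about 1 CPM and Ppp1r9a (4902917 to 5165661, plus strand) by 0.42. Sgce lost its call without any 1 of the 6 libraries (adjusted p of 0.068 to 0.17), and Ppp1r9a without each of them except ALK7-DN replicate 3 (adjusted p of 0.090 to 0.30). Asb4 (5383386 to 5433022, plus strand) was lower by -0.49 on the log2 scale (SE 0.07, adjusted p = 0.00016).

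The lower genes of the imprinted list, which did not hold Asb4, were Ndn, Dlk1 and Meg3. Ndn, a gene of the Prader-Willi region, had 6.47, 7.24 and 6.64 CPM in ALK7-labelled cells, 10.3, 10.8 and 11.9 CPM in ALK7-DN-labelled cells and 10.3, 10.7 and 9.97 CPM in control cells (log2 fold change -0.69, SE 0.13, adjusted p = 0.002). The ALK7-labelled libraries were below all 6 others. Meg3, a long noncoding RNA of the Dlk1 domain, had 202, 219 and 208 CPM against 251, 249 and 239 CPM in ALK7-DN-labelled cells (log2 fold change -0.23, SE 0.05, adjusted p = 0.011). Dlk1, a Notch-like ligand of the same domain, stood below 2 CPM (log2 fold change -1.18, SE 0.29, adjusted p = 0.023). Both lost their calls without ALK7 replicate 1 or 3 or ALK7-DN replicate 1 or 2, with adjusted p of 0.053 to 0.083 for Meg3 and 0.096 to 0.15 for Dlk1.

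Neuronal and excitability genes went both ways. Of 28 glutamate receptors, transporters and amine receptors 4 were higher and 2 lower (21.4%, against 2.45% of all genes). Besides Galr1 and Slc1a2, the AMPA receptor subunit Gria3 was higher by 0.72 (SE 0.17, adjusted p = 0.017), and the nicotinic receptor subunit Chrna3 was lower at 42.4, 39.5 and 38.2 CPM in ALK7-labelled cells against 54.1, 52.7 and 56.2 CPM in ALK7-DN-labelled cells (log2 fold change -0.44, SE 0.06, adjusted p = 1.0e-04). Gria3 lost its call without ALK7 replicate 1 or 3 or ALK7-DN replicate 2 or 3 (adjusted p of 0.084 to 0.095). Of 42 axon guidance and neuronal genes 3 were higher and 2 lower (11.9%, against the same 2.45%). Beside Slit2, the growth cone protein Gap43 was higher at 12.04, 14.9 and 14.6 CPM in ALK7-labelled cells against 9.70, 9.63 and 10.7 CPM in ALK7-DN-labelled cells (log2 fold change 0.47, SE 0.07, adjusted p = 0.00024). The call of Gap43 was lost in the 6 libraries alone (adjusted p = 0.059, and 0.056 with GC correction). The netrin receptor Unc5d was lower by -1.19 (SE 0.23, adjusted p = 0.0034). Among potassium and calcium channels Trpm5 and Ryr2 were higher. Trpm5 kept its call under every alternative run, while Ryr2 lost its call without 5 of the 6 single libraries (adjusted p of 0.057 to 0.14). Trpm5, a calcium-activated cation channel that aids glucose-stimulated insulin release in mice, had 109, 108 and 107 CPM in ALK7-labelled cells, 81.5, 85.2 and 85.5 CPM in ALK7-DN-labelled cells and 72.3, 70.2 and 70.4 CPM in control cells (log2 fold change 0.36, SE 0.06, adjusted p = 0.0004).

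Metabolic and stress lists held few calls. Of 28 cholesterol genes the exporter Abca1 was higher, and the synthesis enzyme Sqle was lower (log2 fold change -0.23, SE 0.06, adjusted p = 0.033). The list's median was -0.16, and with GC correction 12 were lower. Sqle lost its call without any 1 of the 6 libraries (adjusted p of 0.055 to 0.20). Of 29 genes of the unfolded protein response 3 (10.3%, against 1.28% of all genes) were higher, the chaperone Dnajc3, the sensor Ern1 and the factor Xbp1, by 0.20 to 0.31. In control cells activin B lowered 23 of the 29 genes and raised 1. Ern1 and Xbp1 lost their calls without any 1 of the 6 libraries (adjusted p of 0.052 to 0.25) and Dnajc3 without each of them except ALK7-DN replicate 3 (adjusted p of 0.055 to 0.14). Of 28 glycolysis and hypoxia genes 2 (7.14%) were higher, Pdk1 and Bnip3, by 0.40 and 0.51, and with GC correction 5 were. Pdk1 lost its call without 4 of the 6 single libraries (adjusted p of 0.074 to 0.19) and Bnip3 without 5 (adjusted p of 0.064 to 0.28).

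Adhesion, growth and signalling lists had 1 to 4 calls each: 14.8% of the adhesion, 13.3% of the IGF, 5.26% of the G1/S and 6.67% of the ligand genes tested, against 2.45% of all genes. Of 27 genes of cell adhesion and epithelial-mesenchymal transition 3 were higher, Jam2, Nrcam and Cd9, and the epithelial keratin Krt18 was lower. Nrcam lost its call without 5 and Krt18 without 4 of the 6 single libraries (adjusted p of 0.076 to 0.20 and 0.061 to 0.24). The tetraspanin Cd9 had 25.7, 25.5 and 25.7 CPM in ALK7-labelled cells against 22.0, 19.8 and 20.4 CPM in ALK7-DN-labelled cells (log2 fold change 0.30, SE 0.06, adjusted p = 0.0067). Its call was lost without ALK7-DN replicate 2 (adjusted p = 0.057), in the 6 libraries alone (0.056) and with GC correction (0.11 over 30 libraries and 0.12 in the 6). Of 15 genes of the IGF axis Igfbp2 was lower and Pappa2, a protease that cleaves IGF-binding proteins, was higher at 258, 226 and 235 CPM in ALK7-labelled cells, 173, 169 and 179 CPM in ALK7-DN-labelled cells and 147, 141 and 152 CPM in control cells (log2 fold change 0.47, SE 0.09, adjusted p = 0.0046). For Pappa2 the 3 lines did not overlap. Of 38 G1/S genes the cyclin Ccnd2 was higher (0.87, adjusted p = 0.018) and Myc lower (-0.69, adjusted p = 0.042), and they lost their calls without 4 and 5 of the 6 single libraries (adjusted p of 0.084 to 0.12 and 0.10 to 0.22). Of 15 activin and TGF-β ligands and antagonists 1 was higher, the BMP antagonist Grem1, at means of 1.21 CPM in ALK7-labelled cells, 0.422 CPM in ALK7-DN-labelled cells and 0.569 CPM in control cells (log2 fold change 1.49, SE 0.29, adjusted p = 0.0044). The call of Grem1 was lost in the 6 libraries alone (adjusted p = 0.067, and 0.078 with GC correction).

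Besides Slit2, the largest fitted changes among called genes were those of processed pseudogenes, named here after their values were seen. Rpl31-ps16 was higher by 6.09 and Gm5879, Gm10224, Gm13202 and Gm17383 had log2 fold changes of -5.82, -4.48, -2.67 and -2.61. In Rpl31-ps16, Gm5879 and Gm17383 the libraries of the lines overlapped. Such copies share reads with their parent genes, and their levels are uncertain.

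Several lists had no called gene. By edgeR 0 were called, and 2 of 25 fatty acid genes, 4 of 30 G2/M genes, 7 of 29 apoptosis genes, 7 of 34 immediate early genes and 4 of 30 genes of oxidative phosphorylation had an unadjusted p under 0.05, against 2099 of the 15627 genes tested. DESeq2 and limma-trend called 0 in each of these lists. With GC correction 1 gene each was called among the fatty acid, G2/M and oxidative phosphorylation genes, and 0 among the apoptosis and immediate early genes. Of 6 tested markers of fibroblast, endothelial and immune cells 0 were called by edgeR, DESeq2 or limma-trend, and 1 had an unadjusted p under 0.05.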

How the data were processed

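Cells were plated in triplicate, and poly(A) libraries came from Trizol-extracted RNA with a strand-marking kit, per the labels' protocols. The submitters' processing notes list bcl2fastq 2.17, cutadapt 1.4.2, HISAT2, featureCounts 1.4.4, edgeR and the mm10 build. Not given in the sources used here are the version of HISAT2, whether counting used the strand, and how reads with several matches were handled. The authors deposited integer read counts for 39017 genes in 30 libraries, and the series table was identical to the files of all 30 single samples. Their table of normalized values was not used.

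Counts were tested with edgeR 4.0.16 in R 4.3.3 (filterByExpr, TMM, 10 group means over all 30 libraries, quasi-likelihood F test, adjusted p threshold 0.05), checked on simulated counts. CPM used the TMM-scaled library sizes. The SE was the log2 fold change over the square root of F. Alternatives used DESeq2 1.42.0, limma 3.58.1, other scalings and filters, a replicate block, left-out libraries and offsets for transcript GC content (37607 genes matched by Ensembl ID to GENCODE M21, a spline of 6 degrees of freedom per library, 15453 of the 15627 genes tested). The comparison of directions with activin B used the group mean of the libraries' log2 CPM, with a pseudocount of 0.5 CPM. Promoters came from RefSeq.

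The comparison, the 35 gene lists (985 genes) and the rule for named genes were chosen with earlier results of these data known. The rule named receptors, SMADs and insulin genes; up to 15 genes per direction with the largest fold change and the 10 with the smallest p, among called genes with a regular symbol, a mean of at least 2 CPM in the higher group and no overlap between the libraries; and up to 4 called members of each list by p. Inhbb was named too but did not pass the low-count filter. Some results are not reported here.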

Additional observations from a re-analysis of the deposited data

How the results depend on the processing

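The count of 383 genes called between ALK7-labelled and ALK7-DN-labelled cells stayed within 1.5 times with DESeq2 size factors (376), upper-quartile factors (379), DESeq2's test (473), limma-trend (365), batch 1 only (338), no low-count filter (281), a stricter filter (362), the 9 DOX libraries of the 3 lines (562) and the 6 libraries alone (365, of which 236 were shared and 41.9% higher, against 52.2%). It moved to 683 with GC correction, to 149 at 1.5-fold, to 59 at 2-fold and to 206 to 262 with 1 of the 6 libraries left out. Chosen after seeing the data, it was 437 with GC correction in the 6 libraries and 805 without 3 libraries of other groups (control activin B replicate 2, sh1/2 DOX replicates 1 and 3), which have the lowest shares of counts in their 10 largest genes.

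The labels give replicate numbers but not what they mark. Deviations of same-numbered ALK7 and ALK7-DN libraries correlated at 0.17, 0.079 and 0.095. Between these lines every library correlated best with its own number, a hint from the data and not from the design. Against control libraries this did not always hold. ALK7 replicate 3 correlated at 0.075 with control replicate 2 and 0.060 with control replicate 3, and ALK7-DN replicate 3 at 0.089 and 0.086. A replicate block gave 552 calls over 30 libraries, 1081 in the 6 libraries and 1096 with GC correction. With the replicate block the ALK7 against control count was 529 over 30 libraries, 49 in its own 6 and 1328 with GC correction, the ALK7-DN against control count 519 with GC correction, and the activin B count in control cells 4961 with GC correction.

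The 310 calls of ALK7 against control were 159 in their own 6 libraries, 186 with no low-count filter, 758 with GC correction and 151 to 226 with 1 library left out. The 151 calls of ALK7-DN against control were 25 in their own 6 libraries, 91 with no filter, 294 with GC correction and 67 to 88 with 1 left out. The 3180 calls of activin B were 1734 in their own 6 libraries and 2432 to 3031 with 1 left out. The cause of these moves was not tested.

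For 104 genes, 2165 values were computed under alternatives: 1833 kept direction and side of the threshold, 302 lost the call, 19 gained one and 11 reversed, all of genes not called. Of 87 called genes 41 kept the call under every alternative run. Reversed values were -0.011 for Acvr2a and 0.020, 0.016 and 0.019 for Smad7 under the 3 fits with GC correction, -0.057 for Smad2 under the same, and -0.0076 to 0.044 for Smad2 with 1 ALK7-DN library left out, below 0 without replicate 1 or 2 (-0.0029). A fit of the authors' normalized table was not run. Genes near 1 CPM rest on few reads, and fold changes there have the widest errors.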
